A study of Mus musculus with 37 samples.

Results

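Rikenellaceae and Prevotellaceae are families of Bacteroidales, and all sequence variants that the deposited taxonomy places in either family are described here. They are 316 of the 6100 rows of the count table, 199 in Rikenellaceae and 117 in Prevotellaceae. Together they held 1949454 reads, 12.1% of the bacterial reads kept, of which Rikenellaceae made up 6.14% and Prevotellaceae 5.94%. The study sequenced the V3–V4 stretch of the 16S rRNA gene, the gene used to tell bacteria apart, from the stool of adolescent C57Bl/6 mice. In the prenatal alcohol exposure (PAE) groups the dams drank 10% ethanol for the first 10 days of pregnancy and water afterwards, and in the control groups they drank water throughout. There were 11 libraries from male and 7 from female controls, and 10 from male and 9 from female PAE offspring. The question was whether the gut community differed with the exposure, and whether it did so in both sexes. Neither dam, litter, cage nor batch is given in the labels, so pups of 1 litter may stand as separate samples, and p-values measure only the spread between libraries.

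Both families are made up of Gram-negative anaerobes that are common in the large intestine. Prevotellaceae are known for breaking down plant polysaccharides and fermenting the sugars to succinate and acetate. Rikenellaceae include Alistipes, a bile-tolerant genus that also grows on protein. Several of the genus names in the taxonomy are placeholders for groups known from sequence (Rikenellaceae_RC9_gut_group, Prevotellaceae_UCG-001, Prevotellaceae_NK3B31_group). A 16S share is a share of reads: it falls when other bacteria take more of the reads, and 1 genome can carry several slightly different 16S copies, so a variant is not the same as a strain.

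Library totals ranged from 102672 to 1813237 reads. The libraries are named below by the numbers in their labels, which fall into 4 stretches: controls 1 to 10, PAE 11 to 19, PAE 20 to 29 and controls 30 to 37. Both sexes occur in each stretch, and no label says whether a stretch is a batch. The 8 controls 30 to 37 stood apart from the 10 controls 1 to 10 in which variants they held (described below), and fits with only 1 of these stretches as controls are given beside the results that turn on them. A second set stood apart: libraries 3 and 10 (control females), 20 to 24 (PAE males), 27 and 28 (PAE females) were the only ones with reads of the genus Robinsoniella, and they held 190 to 292 variants after thinning to 102655 reads, against 369 to 666 in the other 28.

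Most of the members were rare. In all, 284 of the 316 variants had reads in 1 library only, with a median of 3 reads, and together made up 0.157% of the members' reads. The other 32 held nearly all reads, and 4 of them had reads in all 37 libraries. The filter on low counts (at least 5 reads in at least 7 libraries) kept 17 variants with 90.7% of the members' reads and 5 genera. Below, variants are numbered within their genus by mean share. A level under 0.01% of reads is called a trace.

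The genera were built in different ways. Alistipes had 141 variants and 608294 reads, with 28.5% of them in its first variant, and Rikenellaceae_RC9_gut_group had 50 variants and 382700 reads, with 26.5% in the first. Prevotellaceae_UCG-001 (57 variants, 510983 reads) was almost 1 sequence, with 99.9% of its reads in the first variant. Alloprevotella (33 variants, 340276 reads) had 59.9% of its reads in the first and Prevotellaceae_NK3B31_group (13 variants, 107103 reads) 88.5%. Among the remaining rows, DMER64 (36 reads), SP3-e08 (11 reads), unclassified Prevotellaceae (40 reads) and unclassified Rikenellaceae (11 reads) were too rare to test. Species names were given for few variants, most often Alistipes_inops (7 variants) and Alistipes_timonensis (3 variants).

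**Figure D1:**
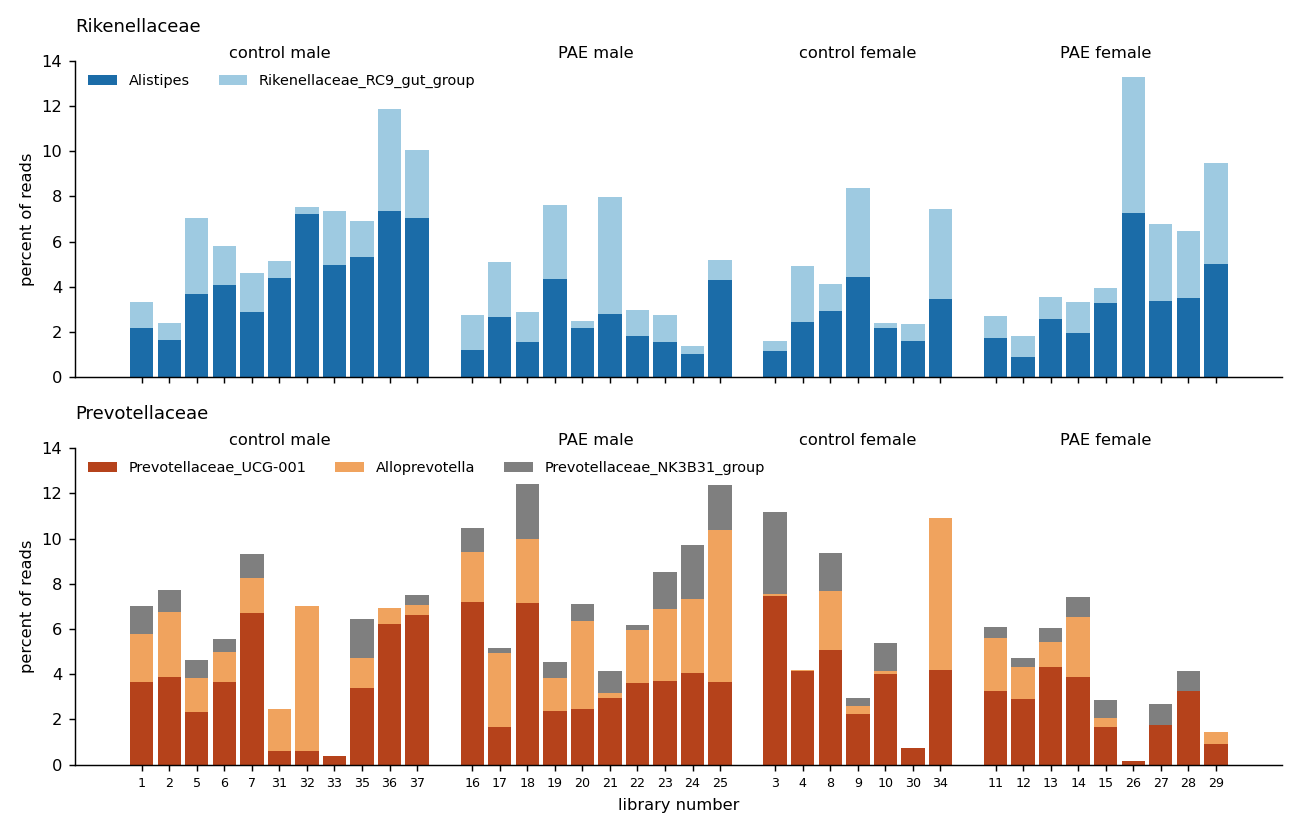
Percent of reads (vertical axis) of the genera of Rikenellaceae (top) and Prevotellaceae (bottom) in each library (horizontal axis, ordered by group and library number); stacked bars are the genera. Prevotellaceae were thinnest in PAE female 26 (0.185% of reads), which had the highest share of Rikenellaceae (13.3%).

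Neither family was called as changed by the exposure in either sex. Rikenellaceae ranged from 2.40% to 11.9% in control males (median 6.90%) and from 1.36% to 7.98% in PAE males (median 2.92%). The male groups overlapped widely, with 8 of 10 PAE males below the control median and only 1 below all controls. Mean shares were 6.55% ± 2.77 (SD, n = 11) and 4.11% ± 2.26 (SD, n = 10), and the log2 fold change fitted by edgeR (PAE over control, here called the log2 change) was -0.52 (SE 0.41, edgeR adjusted p = 0.455). The 6 males among controls 30 to 37 held 5.13% to 11.9% and the 5 among controls 1 to 10 held 2.40% to 7.03%, and with controls 1 to 10 alone the log2 change was 0.040. In females, Rikenellaceae ran from 1.61% to 8.35% in controls (median 4.11%) and from 1.80% to 13.3% in PAE (median 3.94%). The female medians were close, and PAE libraries 26 and 29 lay above all controls. The female means were 4.46% ± 2.62 (SD, n = 7) and 5.70% ± 3.72 (SD, n = 9), a log2 change of 0.58 (SE 0.47, edgeR adjusted p = 0.889).

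PAE females split by library number. The 5 numbered 11 to 15 held 1.80% to 3.94% Rikenellaceae and the 4 numbered 26 to 29 held 6.45% to 13.3%, with no overlap. In Prevotellaceae the order was opposite, with 2.85% to 7.44% in the first stretch and 0.185% to 4.17% in the second, and here the ranges overlapped. PAE males did not split in this way, with 2.75% to 7.63% Rikenellaceae in libraries 16 to 19 and 1.36% to 7.98% in libraries 20 to 25. The log2 change of Rikenellaceae in females was -0.88 with PAE 11 to 19 alone (edgeR adjusted p = 0.476). Over all alternatives other than leaving out 1 library, this value ran from -0.88 to 1.36.

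Prevotellaceae ranged from 0.377% to 9.33% in control males (median 6.93%) and from 4.15% to 12.4% in PAE males (median 7.82%). Of the PAE males, 4 lay above all controls and 2 controls lay below all PAE males. The means of 5.91% ± 2.56 (SD, n = 11) and 8.07% ± 3.10 (SD, n = 10) gave a log2 change of 0.59 (SE 0.42, edgeR adjusted p = 0.415). Control females held 0.746% to 11.2% (median 5.37%) and PAE females 0.185% to 7.44% (median 4.17%), with 3 controls above all PAE females. Their means of 6.38% ± 4.12 (SD, n = 7) and 3.96% ± 2.37 (SD, n = 9) gave -0.52 (SE 0.48, edgeR adjusted p = 0.922). Of all families tested, 5.0% were called in males and 1.67% in females.

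The fitted values of both families had opposite signs in the sexes, and the difference itself did not pass the test. With controls 1 to 10 alone Rikenellaceae was above 0 in both sexes (0.040 in males and 0.52 in females). With controls 30 to 37 alone it was below 0 in both (-1.08 in males and -0.15 in females, edgeR adjusted p = 0.111 and 0.917). With all libraries the difference, males minus females, was -1.10 for Rikenellaceae (SE 0.62) and 1.11 for Prevotellaceae (SE 0.64). Each had an edgeR adjusted p of 0.583, with unadjusted p of 0.0853 and 0.0920. No family of the 60 tested was called for this difference (0.0%), with 5 at an unadjusted p under 0.05. Between the sexes, PAE males exceeded PAE females in Prevotellaceae by 1.08 on the log2 scale (SE 0.45, unadjusted p = 0.0215, edgeR adjusted p = 0.258). Male against female, 1.67% of families were called in controls and 0.0% in PAE, none of them members.

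Among 6 other groups of Bacteroidales tested at family level, males had 1 higher and 1 lower in PAE and females none. Bacteroidaceae, which hold the polysaccharide degrader Bacteroides, had a log2 change of 2.64 in males (SE 0.52, edgeR adjusted p = 0.000600). F082 was lower (edgeR adjusted p = 0.00140), with 31083 of its 31145 reads in control males 31, 32 and 33. Muribaculaceae, a leading family of mouse stool, had -0.24 in males (SE 0.22, edgeR adjusted p = 0.572).

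At genus level 0 of the 5 tested members were called by edgeR in males or in females, against 11.6% of the 112 genera in males and 2.68% in females. None had an unadjusted p under 0.05 in either contrast. The median log2 change of the 5 was 0.48 in males and -0.66 in females, against -0.28 and -0.13 over all genera tested. For the difference between the sexes 0 were called, against 3.57% of genera. For male against female 0 were called in controls, against 4.46%, and 0 in PAE, against 0.0%. In PAE, Alloprevotella was 2.35 higher in males on the log2 scale (SE 1.04, unadjusted p = 0.0290, edgeR adjusted p = 0.407).

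**Figure D2:**
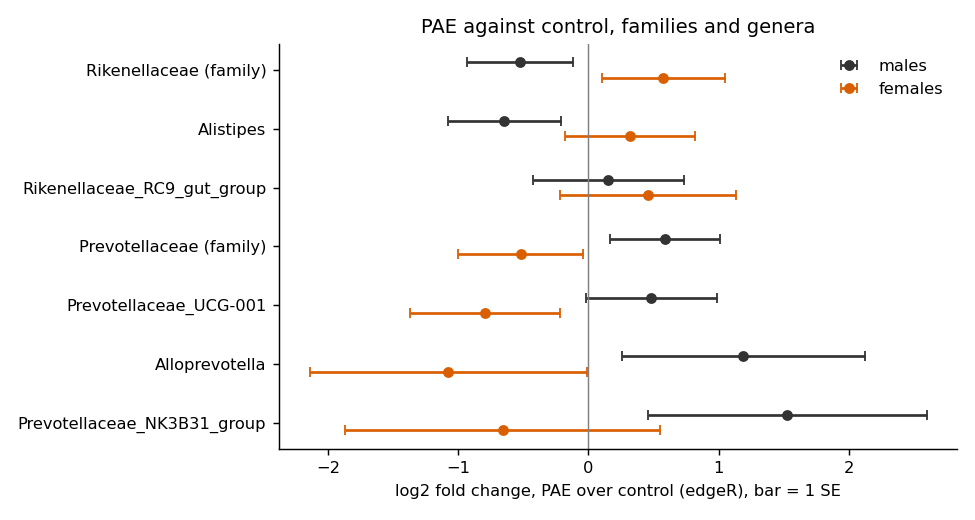
Log2 fold change of PAE over control (horizontal axis) for both families and their 5 tested genera (vertical axis), in males (black) and females (orange); points are edgeR estimates and bars 1 SE. None of these estimates was called; Prevotellaceae, Prevotellaceae_UCG-001, Alloprevotella and Prevotellaceae_NK3B31_group lie above 0 in males and below 0 in females, though for Alloprevotella and Prevotellaceae_NK3B31_group the female sign turned with limma on centred log-ratios.

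Alistipes, the leading genus of Rikenellaceae, ranged from 1.66% to 7.36% in control males (median 4.38%) and from 1.04% to 4.33% in PAE males (median 1.99%). All 10 PAE males lay below the control median and 4 below every control, while 6 controls lay above every PAE male. The means of 4.62% ± 1.99 (SD, n = 11) and 2.35% ± 1.18 (SD, n = 10) gave a log2 change of -0.65 (SE 0.43, edgeR adjusted p = 0.331), which is not a call. The 6 controls above all PAE males were numbers 31, 32, 33, 35, 36 and 37, at 4.38% to 7.36%. The 5 male controls numbered 1 to 7 held 1.66% to 4.08%, within the range of PAE males. With controls 30 to 37 as the only controls the fall was called (-1.42, SE 0.49, edgeR adjusted p = 0.0454), beside 17.9% of the genera tested. With controls 1 to 10 as the only controls the male value was -0.11 (SE 0.50, edgeR adjusted p = 0.943). In females Alistipes ranged from 1.16% to 4.43% in controls and from 0.913% to 7.24% in PAE, and the log2 change was 0.32 (SE 0.50, edgeR adjusted p = 0.960).

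Rikenellaceae_RC9_gut_group ranged from 0.319% to 4.52% in control males (median 1.70%) and from 0.325% to 5.19% in PAE males (median 1.26%). In females the ranges were 0.239% to 3.97% (median 1.20%) in controls and 0.658% to 6.02% (median 1.36%) in PAE. The groups of each sex overlapped widely, with 2 PAE females above all controls, and the log2 changes were 0.15 in males (SE 0.58, edgeR adjusted p = 0.870) and 0.46 in females (SE 0.68, edgeR adjusted p = 0.960). PAE females split by number here as well, with 0.658% to 1.36% in libraries 11 to 15 and 2.95% to 6.02% in libraries 26 to 29. PAE males did not, with 1.32% to 3.31% in libraries 16 to 19 and 0.325% to 5.19% in libraries 20 to 25.

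The 2 leading variants of Rikenellaceae_RC9_gut_group stood in opposite order in that split. ASV 1, which had reads in every library, held 0.413% to 0.929% in PAE females 11 to 15 and 0.209% to 0.487% in PAE females 26 to 29. ASV 2 held 0.00278% to 0.678% in the former and 1.93% to 3.99% in the latter. In the PAE males ASV 1 held 0.581% to 3.31% in libraries 16 to 19 and 0.0964% to 0.465% in libraries 20 to 25, with no overlap. Their ASV 2 ranges overlapped, at 0.00230% to 0.662% in libraries 16 to 19 and 0.0645% to 3.56% in libraries 20 to 25. The high genus shares of PAE females 26 to 29 thus came with high ASV 2 and not with high ASV 1. Neither variant was called for PAE against control by edgeR, in either sex.

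The leading Alistipes variants also ranged widely within each group. ASV 1 held 0% to 3.46% of reads in control males (median 0.758%) and 0.0390% to 2.56% in PAE males (median 0.212%). In females ASV 1 held 0% to 2.74% in controls (median 0.0702%) and 0.0108% to 5.34% in PAE (median 0.761%). ASV 2 held 0% to 1.80% in control males (median 0.110%) and 0.0183% to 1.78% in PAE males (median 0.279%). In females ASV 2 held 0% to 1.27% in controls (median 0.414%) and 0.183% to 0.991% in PAE (median 0.610%). The groups overlapped in each case, and neither variant was called by edgeR. With limma on centred log-ratios ASV 2 was called higher in PAE males (4.48, SE 1.62, limma adjusted p = 0.0487).

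Prevotellaceae_UCG-001 ranged from 0.372% to 6.71% in control males (median 3.67%) and from 1.66% to 7.20% in PAE males (median 3.64%). The lowest 3 control males, numbers 31 to 33, held 0.372% to 0.624%, and the control female beside them, number 30, held 0.738%. The other control libraries held at least 2.23%. In females the medians were 4.17% in controls and 2.91% in PAE, and 8 of 9 PAE females lay below the control median. The log2 changes were 0.48 in males (SE 0.50, edgeR adjusted p = 0.559) and -0.80 in females (SE 0.58, edgeR adjusted p = 0.817).

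Alloprevotella varied widely between libraries. It ranged from 0.00461% to 6.38% in control males (median 1.47%) and from 0.241% to 6.73% in PAE males (median 3.0%). Of the PAE males, 9 of 10 lay above the control median and 1 above all controls. The medians of 0.150% in control females and 0.549% in PAE females stood the other way to the means, since the control mean (1.42% ± 2.52, SD, n = 7) exceeded the PAE mean (0.948% ± 1.01, SD, n = 9), with library 34 at 6.72%. The log2 changes were 1.19 in males (SE 0.93, edgeR adjusted p = 0.399) and -1.08 in females (SE 1.07, edgeR adjusted p = 0.918). Without library 34 the female value was 0.80.

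Prevotellaceae_NK3B31_group was at trace in 6 of the 8 controls 30 to 37. PAE males held 0.236% to 2.45% (median 1.02%), all of them above trace, and control males 0.000384% to 1.75% (median 0.579%). The 4 control males below all PAE males were numbers 31, 32, 33 and 36, at 0.000384% to 0.00621%. Both control females of that stretch were at trace too, at 0.00159% and 0.00265%, as were control female 4 and PAE females 26 and 29. The control males with ASV 1 of this genus above trace were the 5 numbered 1 to 7, at up to 1.22%, and all 10 PAE males held it, at 0.236% to 2.45%. The log2 changes of the genus were 1.53 in males (SE 1.07, edgeR adjusted p = 0.354) and -0.66 in females (SE 1.21, edgeR adjusted p = 0.960). With controls 1 to 10 as the only controls the male value was 0.62 (SE 0.99, edgeR adjusted p = 0.894), and fitting controls 30 to 37 instead gave 1.78 (SE 1.27, edgeR adjusted p = 0.365).

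At the level of variants, 2 of the 17 tested were called, both lower in PAE and both in each sex. This is 2 of 17 beside 12.1% of all 553 variants in males (7.96% lower) and 12.3% in females (8.32% lower), so the share of members called was near the background. The remaining 15 had edgeR adjusted p from 0.322 to 0.991 in males and from 0.660 to 0.990 in females. The members' median log2 change was -0.10 in males and 0.11 in females, against -0.71 and 0.26 over all variants tested. No variant of the table was called by edgeR for the difference between the sexes (0.0%, with 68 at an unadjusted p under 0.05). Nor did edgeR call a member for male against female in controls (0.904% of variants called) or in PAE (0.0%). DESeq2 called Alloprevotella ASV 2 higher in control males than in control females (log2 fold change 5.48, SE 1.15, DESeq2 adjusted p = 5.7e-05). The edgeR value had the opposite sign (-2.21, SE 1.55).

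Rikenellaceae_RC9_gut_group ASV 3 was the first of these (identifier 26d711535837669071a59214244e02ad). Control males ranged from 0% to 3.17% (median 0.116%) and PAE males from 0% to 0.00678% (median 0.00196%). No PAE male was above trace, whereas 6 control males were. PAE males had 0 to 16 reads of the variant per library and PAE females 0 to 20, so the ratios below divide by counts near the floor. The means of 0.703% ± 1.07 (SD, n = 11) and 0.00240% ± 0.00261 (SD, n = 10) differed by 293-fold (log2 change -8.40, SE 1.97, edgeR adjusted p = 0.00443). Without control male 36 the ratio was 190.1-fold. In females it ran from 0% to 3.42% in controls (median 0.00475%) and from 0% to 0.00524% in PAE (median 0.00321%). Only control females 30 and 34 were above trace, and the other 5 lay within the range of PAE females. The female means of 0.552% ± 1.28 (SD, n = 7) and 0.00305% ± 0.00176 (SD, n = 9) differed by 181-fold (log2 change -8.02, SE 2.08, edgeR adjusted p = 0.0185). Without control female 34 the female ratio was 24-fold and the call was lost (log2 change -4.96, edgeR adjusted p = 0.0862).

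Alloprevotella ASV 2 was the second (identifier 1dcd5cddd286ba7e9e4786d8d8c1d201). Control males ranged from 0% to 1.33% (median 0.00444%) and PAE males from 0.00126% to 0.0107% (median 0.00331%). Above trace were control males 35, 36 and 37, at 1.33%, 0.691% and 0.427%, and PAE male 24 at 0.0107%. The value of PAE male 24 is 11 reads in the shallowest library, and the other PAE males had 4 to 12 reads. The medians of both groups were at trace. The means of 0.225% ± 0.432 (SD, n = 11) and 0.00391% ± 0.00308 (SD, n = 10) differed by 57.5-fold (log2 change -6.27, SE 1.81, edgeR adjusted p = 0.0126). Without control male 35 the ratio was 29.3-fold. In control females library 34 held 6.69%, and the other 6 held 0% to 0.00667%. PAE females held 0% to 0.00655%, so apart from library 34 the female groups overlapped. Per library, PAE females had 0 to 13 reads of the variant, so the ratios of both sexes divide by counts near the floor. The female means of 0.959% ± 2.53 (SD, n = 7) and 0.00251% ± 0.00246 (SD, n = 9) differed by 382-fold (log2 change -9.17, SE 2.19, edgeR adjusted p = 0.0158). Without control female 34 the ratio was 1.52-fold and the call was lost (log2 change -1.19, edgeR adjusted p = 0.997); of the whole table, 19 of 541 variants were then called in females.

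Both calls needed controls 30 to 37 among the controls. Rikenellaceae_RC9_gut_group ASV 3 was above trace in 8 of these 8 libraries, from 0.116% to 3.42%, and in none of the other 29, whether control or PAE. Controls 1 to 10 held up to 0.00610% and PAE libraries up to 0.00678%. With controls 1 to 10 alone, the log2 changes of Rikenellaceae_RC9_gut_group ASV 3 were -0.25 in males and -0.17 in females, and those of Alloprevotella ASV 2 were -0.013 and -1.38, with edgeR adjusted p from 0.845 to 1.0. With these controls 0 of 17 members were called by edgeR in either sex, with 1 in each at an unadjusted p under 0.05, beside 1.22% of variants in males and 1.42% in females. With controls 30 to 37 alone, 7 of 17 were called in males, 5 of them higher in PAE, and 2 in females, beside 29% and 9.74% of variants. Without the 9 libraries that hold Robinsoniella neither variant was called, with log2 changes of -8.78 and -8.66 for the first of them and -6.24 and -9.86 for the second (males and females), and 1 of 527 variants tested was called in males and 0 in females by edgeR (57 and 87 at an unadjusted p under 0.05). The 4 controls numbered 34 to 37 had 526290 to 1813237 reads and controls 1 to 10 had 177506 to 511625, and with depth as a covariate neither variant was called. Controls 30 to 33 had 359211 to 781609 reads, and among controls 1 to 10 only library 5, at 511625 reads, reached that range. Controls 31 and 32, with 438520 and 359211 reads, held Rikenellaceae_RC9_gut_group ASV 3 at 0.382% and 0.116%. Controls 30 and 33, with 692268 and 781609 reads, were deeper than library 5 and held 0.425% and 2.15%. The parts of depth and stretch were not tested apart. With the stretches as a random block in limma neither variant was called in either sex, with adjusted p of 0.582 and 0.790 for the first and 0.940 and 0.992 for the second (males and females). PAE female 28, with 1255425 reads, held 0.00135% and 0.000637% of the 2 variants (17 and 8 reads).

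**Figure D3:**
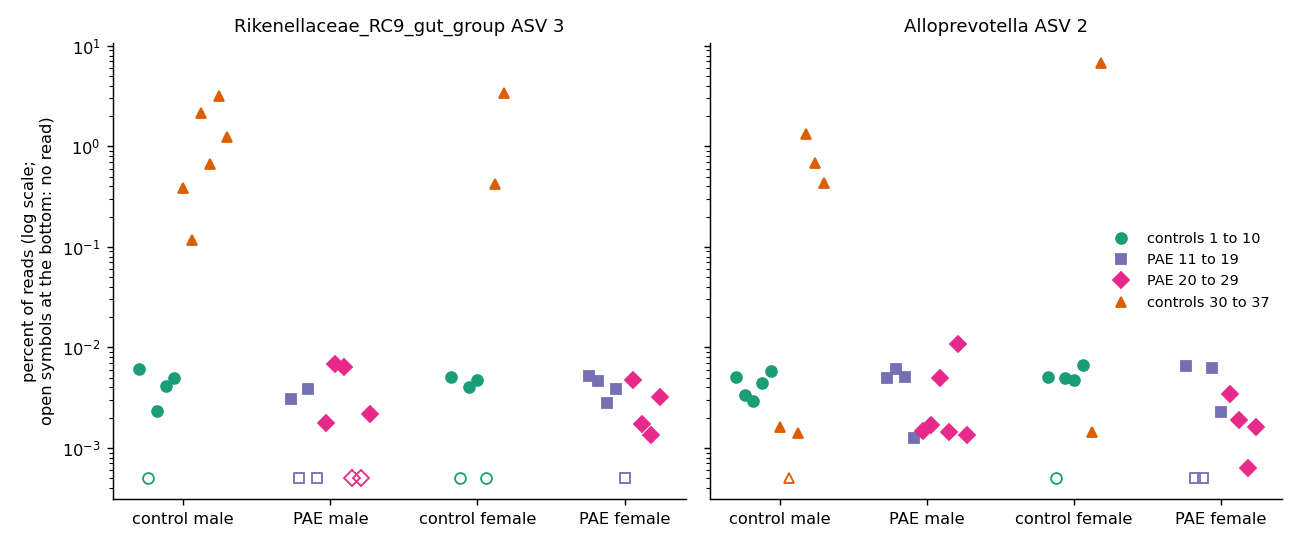
Percent of reads (vertical axis, log scale) of Rikenellaceae_RC9_gut_group ASV 3 and Alloprevotella ASV 2 in the 4 groups (horizontal axis); each point is a library, shape and colour give the stretch of library numbers, and open symbols at the bottom mark libraries with no read. The points above 0.1% are all controls 30 to 37, and controls 1 to 10 lie among the PAE libraries.

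Which variants were present differed between the stretches of library numbers. Of the 32 variants seen in more than 1 library, 15 were above trace in some library of controls 1 to 10, and all 15 were also above trace in PAE. PAE libraries held 1 more, Alloprevotella ASV 2, through PAE male 24 alone. That library is the shallowest, and its 11 reads compare with 4 to 12 in the other PAE males and 0 to 15 in controls 1 to 10. Controls 30 to 37 held 23 variants above trace, of which 12 were above trace nowhere else, and 11 of these 12 had no read in any other library. These 12 were Alistipes ASV 5, 6, 7, 12, 14, 15, 16, 17 and 18, Prevotellaceae_NK3B31_group ASV 2, and Rikenellaceae_RC9_gut_group ASV 3 and 5. Of these only Rikenellaceae_RC9_gut_group ASV 3 passed the filter on low counts and was among the 17 tested. The other 11 had reads in fewer than 7 libraries, so under that filter they could not be called. In turn 5 variants above trace in controls 1 to 10 and in PAE were absent or at trace in controls 30 to 37: Alistipes ASV 8 and 9, Prevotellaceae_NK3B31_group ASV 1, and Rikenellaceae_RC9_gut_group ASV 2 and 4. These are the same 5 that were higher in PAE males when controls 30 to 37 were the only controls. The remaining variants comprised 10 present in all 3 sets, and 4 that were at trace in every library. The sets were read off the values, so they are a description and were given no test. Such sets were not counted over all variants of the table. They therefore cannot be read as a trait of these families in particular.

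**Figure D4:**
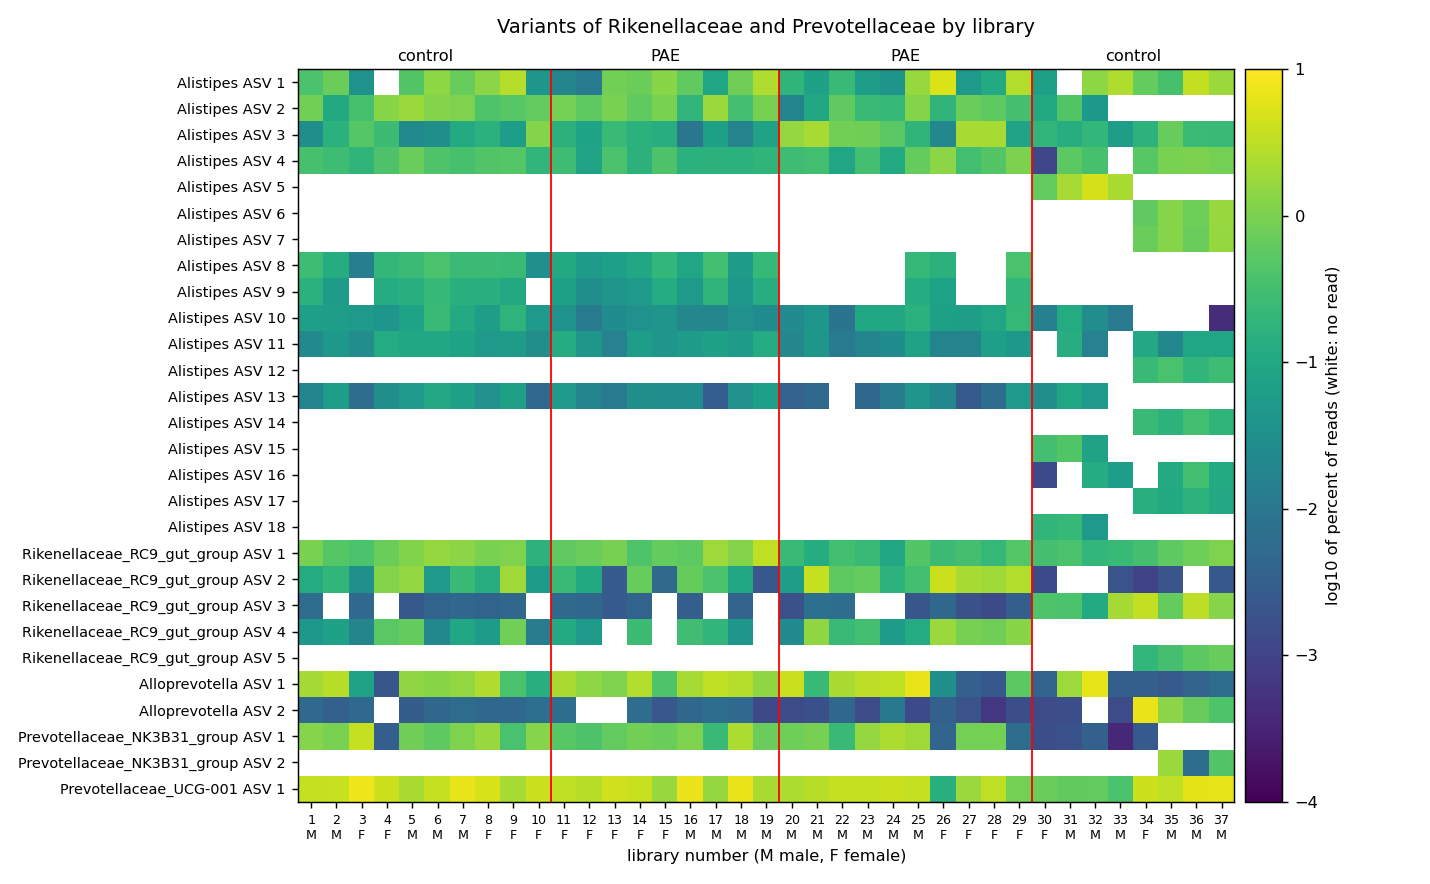
Percent of reads (colour, log10 scale, white for no read) of the variants of both families that were above trace in at least 1 library and had reads in at least 2 (rows), in the 37 libraries ordered by number (columns, M male, F female); red lines part the 4 stretches. The same 15 variants are above trace in controls 1 to 10 and in PAE, and the 12 variants named in the text are so only in columns 30 to 37.

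Within controls 30 to 37 there was a further split. Alistipes ASV 5 had 0.636%, 2.26%, 4.84% and 2.32% of reads in libraries 30, 31, 32 and 33 and no read in any other library. Alistipes ASV 15 and 18 also stayed within these 4. Alistipes ASV 6 had 0.605%, 1.24%, 0.803% and 1.73% in libraries 34, 35, 36 and 37 and no read elsewhere, and Alistipes ASV 7, 12, 14 and 17, and Rikenellaceae_RC9_gut_group ASV 5, had reads in the same 4 only. Alistipes ASV 2, above trace in all 29 libraries numbered below 30, had no read in libraries 33 to 37. Alistipes ASV 16 crossed the split, with reads in libraries 30, 32, 33, 35, 36 and 37.

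The variants found above trace only in controls 30 to 37 made up much of the genera there. In these 8 libraries the 9 such Alistipes variants held 34.2% to 73.6% of the genus, or 1.16% to 5.09% of all reads. Without them Alistipes in the 6 male controls 30 to 37 stood at 1.47% to 4.84% (median 2.35%), against 6.19% as the median with them. Male controls 1 to 10 had 1.66% to 4.08% and PAE males 1.04% to 4.33%, and these ranges overlapped. The variants left out were picked for occurring only in controls 30 to 37, so leaving them out could lower only those controls, and the values are a description. In Rikenellaceae_RC9_gut_group the 2 such variants held 36.3% to 91.3% of the genus in controls 30 to 37. What remained there was 0.204% to 1.08%, against 0.239% to 3.91% in controls 1 to 10 and 0.325% to 6.02% in PAE. The genus share of Rikenellaceae_RC9_gut_group thus overlapped between the stretches, while ASV 2 and 4 were above trace only in libraries numbered below 30 and ASV 3 only in libraries 30 to 37.

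Alloprevotella showed an exchange of this kind too. In controls 34 to 37 ASV 2 held 6.69%, 1.33%, 0.691% and 0.427% of reads while ASV 1 was at 0.00266% to 0.00592%. Male controls 31 and 32 had ASV 1 at 1.87% and 6.38% with ASV 2 at trace or 0, and libraries 30 and 33 had both at trace. In PAE males ASV 1 ranged from 0.239% to 6.73% (median 2.99%), and in control males from 0.00266% to 6.38% (median 1.47%). In PAE females it ranged from 0.00239% to 2.65% (median 0.546%) and in control females from 0.00219% to 2.59% (median 0.0755%). The log2 changes of ASV 1 were 1.19 in males (SE 1.12, edgeR adjusted p = 0.631) and 0.97 in females (SE 1.31, edgeR adjusted p = 0.987). On centred log-ratios limma called it higher in PAE males (3.95, SE 1.32, limma adjusted p = 0.0363).

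The variants of 1 genus did not in general keep a fixed proportion. Over the 78 pairs within a genus that had at least 50 reads each in at least 4 libraries, the SD of the log2 ratio had a median of 1.13. For 5 pairs it was below 0.3. Rikenellaceae_RC9_gut_group ASV 2 and 4 kept a ratio of 1.91 to 3.12 (median 2.31) in 24 libraries, while the share of ASV 2 varied 80.0-fold. Alistipes ASV 8 and 9 kept a ratio of 1.18 to 2.22 (median 1.75) in 20 libraries. Library 10, not among these 20, had 63 reads of ASV 8 and 0 of ASV 9. Of the other 3 pairs, each seen together in 4 libraries, Alistipes ASV 6 and 7 had a median ratio of 1.04 and Alistipes ASV 14 and 17 of 1.69. Whether these 4 pairs are 16S copies of 1 genome was not tested, and their members are not independent of each other in any count of variants. The last pair was Rikenellaceae_RC9_gut_group ASV 1 and 5 (median 1.63), of which ASV 1 also had reads in the other 33 libraries, where ASV 5 had none.

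**Figure D5:**
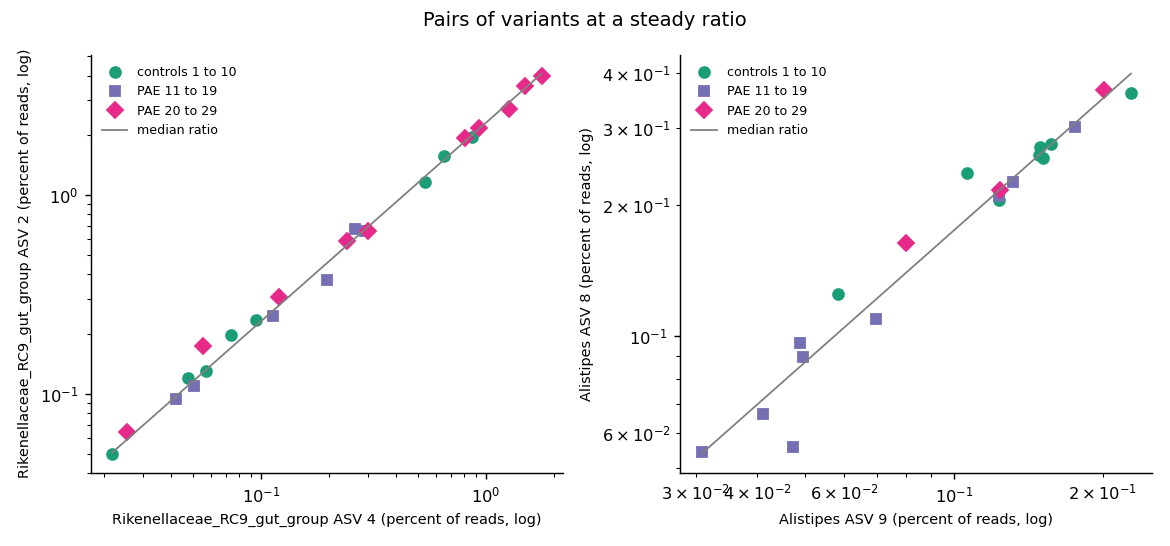
Percent of reads of Rikenellaceae_RC9_gut_group ASV 2 against ASV 4 (left) and of Alistipes ASV 8 against ASV 9 (right), both axes on log scales; each point is a library with at least 50 reads of both, by stretch of library numbers, and the line is the median ratio (2.31 and 1.75). Control and PAE libraries lie along the same line in both plots.

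The 9 libraries with Robinsoniella differed from the other 28 in some Alistipes variants. Of the 9, 2 are controls and 7 are PAE. Alistipes ASV 3 held 0.476% to 2.21% of reads there (median 1.19%) and 0.00928% to 0.699% in the other 28 (median 0.129%). Alistipes ASV 9 had no read in any of the 9 and was above trace in 20 of the 28, the other 8 being controls 30 to 37. Alistipes ASV 8 was above trace in the 2 controls of the 9, libraries 3 and 10. It held 0.0135% and 0.0323% there (24 and 63 reads), and had no read in the 7 PAE libraries of the set. Alistipes ASV 1 held 0.0372% to 0.235% in the 9 (median 0.0617%) and 0% to 5.34% in the 28 (median 0.788%), so the ranges overlapped. In PAE males Alistipes ASV 3 ranged from 0.535% to 2.21% in libraries 20 to 24 and from 0.00928% to 0.185% in the other 5. It was not called by edgeR in males (means 0.642% ± 0.757 against 0.178% ± 0.192 in controls, SD, n = 10 and 11, adjusted p = 0.322), and DESeq2 called it higher (adjusted p = 0.0161).

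After thinning to equal depth, Rikenellaceae held 17.5 ± 3.75 variants in control males (SD, n = 11) against 13.4 ± 2.12 in PAE males (SD, n = 10). In females they held 14.7 ± 2.50 in controls (SD, n = 7) against 14.9 ± 2.03 in PAE (SD, n = 9). Male controls ranged from 12 to 24 and PAE males from 10 to 17. Variants of all bacteria stood at 549.6 ± 116 in control males (SD, n = 11) and 363 ± 150.4 in PAE males (SD, n = 10). The 5 PAE males with Robinsoniella had 190 to 262 variants of all bacteria and a mean of 12.4 in Rikenellaceae, against 433 to 547 and 14.4 in the other 5, and the part of these libraries in the male values was not tested. Prevotellaceae had fewer, with 5.64 ± 2.11 and 5.90 ± 2.23 in control and PAE males, and 8.0 ± 3.0 and 5.44 ± 2.24 in control and PAE females. The log2 ratio of Rikenellaceae to Prevotellaceae reads had a median of 0.10 in control and -1.38 in PAE males, and of -0.55 in control and 0.47 in PAE females. Its range was wide within every group, from -1.69 to 4.29 in control males and from -1.39 to 6.16 in PAE females, where library 26 was highest. In the 5 male controls 1 to 7 it ran from -1.69 to 0.60 (median -1.01) and in the 6 male controls 31 to 37 from 0.10 to 4.29 (median 0.60). These counts and ratios were not tested.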

How the data were processed

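The authors sequenced V3–V4 16S rRNA amplicons with 2 × 250 cycles per the labels' protocols, and deposited raw read counts of 6100 sequence variants in 37 libraries with a taxonomy. cutadapt, Bowtie2 and GRCm39 are named in the submitters' processing notes; which denoiser, classifier and taxonomy release were used is not given in the sources used here. Left out were 15 rows that were unassigned, eukaryotic, chloroplast, mitochondrial or without taxonomy (1522 reads), keeping 99.99% of 16140229 reads. Groups came from the titles. The titles and descriptions of libraries 5 and 6 are exchanged, and both give the same group. Counts were summed by family and genus and tested with edgeR 4.0.16 in R 4.3.3 (TMM, quasi-likelihood F-test, 4 group means, at least 5 reads in at least 7 libraries, Benjamini-Hochberg over all taxa of a rank, adjusted p under 0.05). The procedure was tested on simulated counts with known changes in PAE males only. The simulation had no stretches of library numbers, so it does not cover variants confined to 1 stretch. Alternatives used DESeq2 1.42.0, limma 3.58.1, other scalings, filters, covariates and subsets of libraries. Replicate numbers are unique to a library, so nothing is paired. Variants to be named were the 3 most abundant of each tested genus and those called; the others were named after their values were seen. Members and lists were chosen with earlier results of these data known. Reads without molecular identifiers are not independent molecules, so depth sets only counting error. The totals of 102672 to 1813237 reads bound that error. No variant sequences were used here.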

Additional observations from a re-analysis of the deposited data

Results flagged for a closer look

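In 8 of 51 sets of shares, 1 library lay far from the rest of its group by Dixon's criterion. Each set was 1 family, genus or variant in PAE males, control females or PAE females, and control males were not examined. The criterion's rate of about 1 in 20 holds for independent, normally spread values. These shares are skewed, and a genus shares reads with its variants, so the 8 cannot be set against that rate. In 3 of the 8 the library was control female 34, the deepest of all. It had 6.72% of reads in Alloprevotella (next 2.60%), 6.69% in Alloprevotella ASV 2 (next 0.00667%) and 3.42% in Rikenellaceae_RC9_gut_group ASV 3 (next 0.425%). Control female 8 stood out in Alloprevotella ASV 1 with 2.59% (next 0.365%). Control female 10 stood out in Alistipes ASV 3 with 1.19% (next 0.476% in library 3, which also holds Robinsoniella). PAE female 26 stood out in Alistipes ASV 1 with 5.34% (next 2.66%). PAE male 21 stood out in Rikenellaceae_RC9_gut_group ASV 2 with 3.56% (next 0.662%). PAE male 24, the shallowest library, stood out in Alloprevotella ASV 2 with 0.0107% (next 0.00616%). This is 11 reads, and the other PAE males had 4 to 12.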

How the results depend on the processing

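Leaving single libraries out aside, 319 of 402 comparisons of a result with an alternative kept direction and call, 31 lost the call, 2 gained it, 23 counts or shares moved and 27 turned sign; the causes were not tested unless the setting itself removes libraries or tests fewer taxa. In addition, 952 of 962 comparisons leaving out 1 library kept both. Neither Rikenellaceae nor Prevotellaceae was called under any of the alternatives. Scaling by library totals moved the median log2 change over all families in males from -0.20 to -0.36.

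Signs that turned were of results that were not called. Rikenellaceae turned to 0.040 in males with controls 1 to 10 alone. In females Rikenellaceae turned to -0.88 with PAE 11 to 19 alone, -0.15 with controls 30 to 37 alone and -0.54 without PAE 20 to 24 and 26 to 29, and the difference between the sexes turned to 0.28 with PAE 11 to 19 alone. Alistipes in females turned to -0.033 with the stretches of library numbers as a random block in limma, -0.13 with depth as a covariate, -0.67 with PAE 11 to 19 alone and also without PAE 20 to 24 and 26 to 29, -0.38 with controls 30 to 37 alone and -0.14 without the 9 Robinsoniella libraries (3, 10, 20 to 24, 27 and 28), a set chosen after seeing the data. Alloprevotella in females turned to 0.53 with limma on centred log-ratios, 0.43 with the block and 0.54 with controls 1 to 10 alone, and ran from -1.39 to 0.80 (without library 34) leaving out 1 library. Prevotellaceae_NK3B31_group in females turned to 1.36 on centred log-ratios, 2.30 with the block, 7.31 with controls 30 to 37 alone and 0.18 without the 9, and ran from -1.08 to 0.19 (without library 3). Rikenellaceae_RC9_gut_group in males turned to -0.13 with library totals, -0.54 with PAE 20 to 29 alone, -0.42 with controls 30 to 37 alone, -0.043 without PAE 20 to 24 and 26 to 29 and -0.27 without the 9, and ran from -0.36 (without library 21) to 0.30. In females it turned to -1.37 with PAE 11 to 19 alone and also without PAE 20 to 24 and 26 to 29, -0.64 with controls 30 to 37 alone and -0.47 without the 9.

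Both called variants kept their sign and lost their call under several settings. Rikenellaceae_RC9_gut_group ASV 3 in males gave -5.03 on centred log-ratios, -4.86 with the block, -4.93 with depth, -9.00 with PAE 11 to 19 alone, -0.25 with controls 1 to 10 alone, -8.71 without PAE 20 to 24 and 26 to 29 and -8.78 without the 9. In females it gave -2.70, -4.51, -2.41, -7.95, -0.17, -8.33 and -8.66 in that order, and -8.72 with PAE 20 to 29 alone; leaving out 1 library gave -8.88 to -4.96 (without library 34, edgeR adjusted p = 0.0862). Alloprevotella ASV 2 in males gave -1.25, -1.21, -3.18, -6.24, -0.013, -6.30 and -6.24 in the same order. In females it gave -3.01, -3.89, -4.31, -8.95, -1.38, -9.30 and -9.86, and -1.22 with DESeq2 and -10.20 with PAE 20 to 29 alone; leaving out 1 library gave -10.10 to -1.19 (without library 34).

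The number of member genera called in males was 1 on centred log-ratios (Prevotellaceae_NK3B31_group), 1 with no low-count filter and 1 with controls 30 to 37 alone (Alistipes), against 0. The number of member variants called in males was 3 with DESeq2, 5 on centred log-ratios (all higher), 14 of 316 with no filter and 7 with controls 30 to 37 alone. It was 0 with the block, with depth, with PAE 11 to 19 alone, with controls 1 to 10 alone, without PAE 20 to 24 and 26 to 29, and without the 9. In females it was 1 with DESeq2, 12 of 316 with no filter, 0 on centred log-ratios and with PAE 20 to 29 alone, and 0 under the 6 settings that gave 0 in males; leaving out 1 library gave 0 to 2. For DESeq2, centred log-ratios and no filter, the share called over all taxa is not given here. The member counts under those settings therefore cannot be set against a background. No paired analysis was possible because every library number occurs in 1 group only.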
